A study of Mus musculus with 6 samples.

Results

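The genes described here are 31 enzymes and regulators of the tricarboxylic acid (TCA) cycle, of the pyruvate dehydrogenase complex that feeds it and of the reactions that carry its intermediates in and out. They were chosen by gene symbol from a fixed list, and each is represented by the transcript cluster (the set of probes over the exons of 1 gene) with the highest mean over all arrays among clusters whose probes match no other transcript (crosshyb_type 1). All 31 were found, out of 27365 genes measured. RNA came from fully differentiated primary fat cells grown from the inguinal depot of the mouse, a subcutaneous white fat, and was read on 6 Affymetrix MoGene 2.0 ST arrays. On 3 arrays the cells had been kept for 12 h with PBS, the control, and on 3 they had been kept for 12 h with 50 µM kynurenic acid, a metabolite of tryptophan formed from kynurenine. No strain, sex or age of the animals and no allele is stated in the sources used here. The replicates are called technical in their titles and may come from 1 culture or several, which the labels leave unstated, so a p-value here reflects array-to-array spread that may be technical.

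Pyruvate made by glycolysis enters mitochondria and is turned by the pyruvate dehydrogenase complex into acetyl-CoA. Citrate synthase joins acetyl-CoA to oxaloacetate, and the cycle then oxidises citrate back to oxaloacetate while it reduces the carriers that drive respiration. Kinases of the Pdk family switch the complex off by phosphorylating its alpha subunit, and phosphatases of the Pdp family switch it back on. In fat cells the same enzymes also supply citrate to the cytosol, where it is split for fatty acid synthesis, and pyruvate carboxylase and the malic enzymes exchange carbon between pyruvate and the cycle.

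The start regions of 5 members are shown here, none of which passed the test described below. Pdhb, Pdk2, Pdp2 and Me3 had the smallest unadjusted p-values of the list. Ogdh was added for its separated groups and a window with matches to more than 1 of the motifs searched. Suclg2 and Got2 also had separated groups and are not shown. Each window runs from 250 bases before to 50 bases after the start site nearest to the 5′ end of the cluster measured, 5′ to 3′ on the strand of the gene, as RefSeq gives it on GRCm38.p6. Capitals mark matches, on either strand, to any of 4 motifs: the core of the xenobiotic response element (GCGTG), through which the aryl hydrocarbon receptor acts, the estrogen-related receptor half-site (AAGGTCA), the cAMP response element (TGACGTCA) and the motif of NRF1 (GCATGCGC).
Pdhb: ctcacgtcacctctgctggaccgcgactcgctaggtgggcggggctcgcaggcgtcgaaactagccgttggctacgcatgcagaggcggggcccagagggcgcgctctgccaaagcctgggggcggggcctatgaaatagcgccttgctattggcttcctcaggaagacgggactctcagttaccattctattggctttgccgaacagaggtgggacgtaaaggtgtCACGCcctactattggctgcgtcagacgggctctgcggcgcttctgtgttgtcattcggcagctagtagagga
Pdk2: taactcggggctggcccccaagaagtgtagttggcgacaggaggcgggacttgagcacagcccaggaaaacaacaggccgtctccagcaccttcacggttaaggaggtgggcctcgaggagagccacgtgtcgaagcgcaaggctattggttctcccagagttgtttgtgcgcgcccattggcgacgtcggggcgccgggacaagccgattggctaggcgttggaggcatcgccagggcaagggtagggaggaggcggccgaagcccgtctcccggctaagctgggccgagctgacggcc
Pdp2: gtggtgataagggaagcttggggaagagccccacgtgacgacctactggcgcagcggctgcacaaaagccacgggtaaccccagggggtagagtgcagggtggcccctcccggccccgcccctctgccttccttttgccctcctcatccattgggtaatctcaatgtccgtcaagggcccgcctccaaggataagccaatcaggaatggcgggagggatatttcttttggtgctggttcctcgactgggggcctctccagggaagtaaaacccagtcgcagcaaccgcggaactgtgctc
Me3: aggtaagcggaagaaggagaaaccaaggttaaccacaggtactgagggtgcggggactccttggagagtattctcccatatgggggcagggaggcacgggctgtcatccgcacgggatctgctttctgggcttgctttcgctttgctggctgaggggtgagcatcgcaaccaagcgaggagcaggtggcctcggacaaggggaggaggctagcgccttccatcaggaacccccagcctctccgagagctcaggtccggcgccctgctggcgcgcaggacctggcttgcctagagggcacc
Ogdh: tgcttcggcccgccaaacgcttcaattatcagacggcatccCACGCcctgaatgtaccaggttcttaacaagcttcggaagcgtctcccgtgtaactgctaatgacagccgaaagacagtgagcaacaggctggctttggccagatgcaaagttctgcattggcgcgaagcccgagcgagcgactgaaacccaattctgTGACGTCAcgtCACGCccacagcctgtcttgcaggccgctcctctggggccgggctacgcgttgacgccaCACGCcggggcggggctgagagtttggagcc
The windows lie at chr14:8172943-8173242 on the minus strand for Pdhb, chr11:95041322-95041621 on the minus strand for Pdk2, chr8:104591222-104591521 on the plus strand for Pdp2, chr7:89632568-89632867 on the plus strand for Me3 and chr11:6291347-6291646 on the plus strand for Ogdh, which has 6 windows in RefSeq.

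These windows were rich in G and C, with 59.7% in Ogdh to 64.7% in Pdk2. The window of Pdhb held 1 match to the xenobiotic response element core, that of Ogdh held 3 matches to it and 1 to the cAMP response element, and none of the 4 motifs was found in the windows of Pdk2, Pdp2 and Me3. Of the 31 members, 28 had a window in the table (37 windows in all, some of which overlap), and Pdp1, Idh3a and Me2 did not. The core GCGTG stood in the windows of 14 of the 28 members (50.0%), against 35.2% of all 27025 genes with a window. Member windows had a median of 61.3% G and C and all windows 52.7%, and the core is itself made of these bases but for 1 T. These letters also form 1 version of the hypoxia response element core, and they can share bases with a match to the NRF1 motif. TGACGTCA stood in the windows of Mdh2, Ogdh and Pdpr, 3 of 28 members (10.7%), against 2.03% of all genes. Genes with more windows have more places for a match: the 28 members had 37 windows, and all 27025 genes had 32851. AAGGTCA was found for Got1 and Ogdh (7.14%, against 5.38% of all genes) and GCATGCGC for Ogdh alone (3.57%, against 3.05%), in both cases for Ogdh in windows other than the one shown. A match describes letters in a window and says nothing of binding.

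No member of the list passed the test for a difference between kynurenic acid and PBS. Levels were compared as log2 values, so that a log2 change of 1 is a doubling, by limma over all genes with Benjamini-Hochberg adjustment and a threshold of 0.05. Of the 31 genes, 0 passed, against 0.0% of all 27365 genes, and their adjusted p-values ran from 0.475 to 1. At an unadjusted p below 0.05 stood 4 members, 12.9% of the list against 9.69% of all genes: Pdk2 above PBS (1 member, against 4.69% of all genes in that direction), and Pdhb, Pdp2 and Me3 below it (3 members, against 5.0% of all genes). By the methods' t-test, 0 genes passed after Benjamini-Hochberg adjustment and 2156 stood at an unadjusted p below 0.05, the members among them being Pdk2, Suclg2 and Got2. Pdhb, Pdp2 and Me3 were thus below 0.05 by limma and not by that test. The median log2 change was -0.047 over the members and 0.0067 over all genes. Of the members, 20 (64.5%) lay below 0 and 10 above it, where 47.1% of all genes lay below 0 and 51.8% above. All genes include dim ones: 15030 of the 27365 were above background on every array, as were all 31 members. Among the 16419 genes at or above the 40th percentile of level, the median log2 change was -0.0133. At an unadjusted limma p below 0.05 stood 1979 of these, 38.3% of them above PBS, and 5 members. How the list stands among equally bright genes was not tested. Log2 changes ran from -0.34 to 0.22, and none reached 1.5-fold. The 95% interval of the limma fit lay within 1.5-fold in either direction for 30 of 31 members (96.8%, against 95.4% of all genes), Me3 being the exception.

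The size of the list's median depended on the scaling, while its sign stayed below 0 under the 14 alternatives run. Those that changed only the error estimate, the genes tested or the rows per symbol left each member's log2 change as it was. No sign could turn in them. The median was -0.083 when the arrays were centred on their medians, which moved the median of all genes to -0.03, and -0.0062 after cyclic loess, which removes differences that depend on intensity. It was -0.02 without kynurenic acid array 1. Centring also moved the split of all genes at an unadjusted p below 0.05 from 48.4% above PBS to 26.2%. In bulk RNA, fewer cells of a type and less RNA per cell cannot be told apart.

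**Figure D1:**
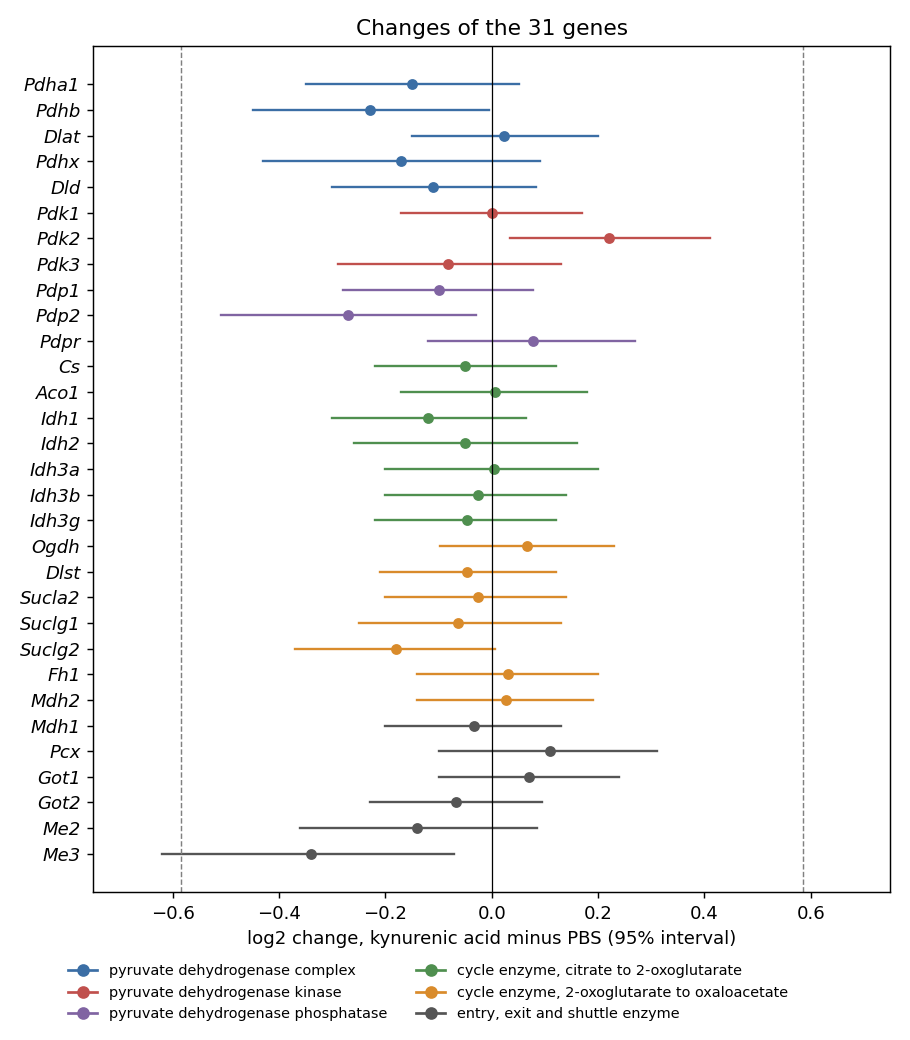
Log2 change of each of the 31 genes (horizontal axis, kynurenic acid minus PBS) with its 95% interval from the limma fit, coloured by role. Dashed lines mark 1.5-fold in either direction. The points run from -0.34 (Me3) to 0.22 (Pdk2), and the interval of Me3 alone crosses a dashed line.

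**Figure D2:**
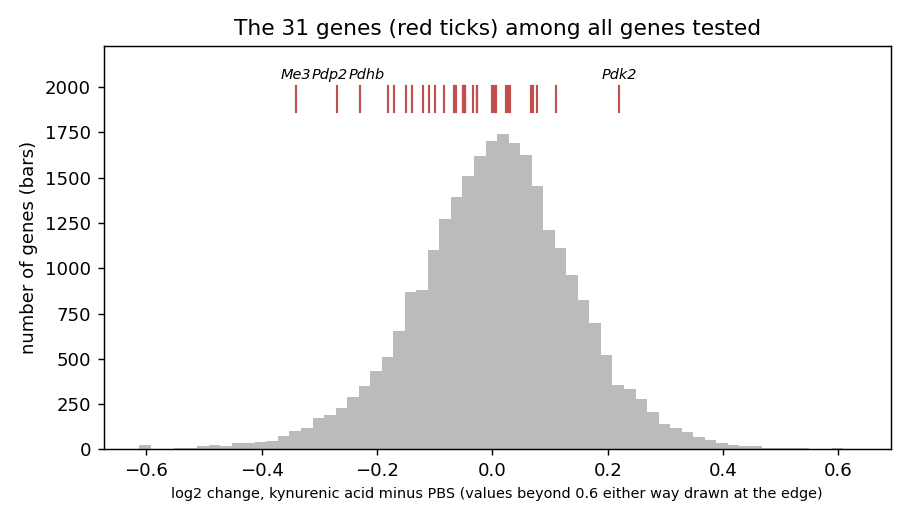
Number of genes (vertical axis) by log2 change (horizontal axis, kynurenic acid minus PBS) over all 27365 genes as grey bars, with a red tick for each of the 31 genes. Most ticks lie inside the bulk of the distribution, and those of Me3, Pdp2, Pdhb and Pdk2 lie towards its tails. The median was -0.047 for the 31 genes and 0.0067 for all genes.

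The arrays were alike in their medians and correlated closely, and background read somewhat higher with kynurenic acid. Array medians lay between 3.93 and 3.98 log2 and correlations between arrays over genes between 0.992 and 0.996, and genes are not independent replicates. The 23 antigenomic probe sets, which match no mouse sequence and read background, had array means from 3.58 to 3.91. These were 3.76, 3.58 and 3.75 on the PBS arrays and 3.88, 3.76 and 3.91 on the kynurenic acid arrays. At 2 decimals no kynurenic acid array stood below a PBS array in this mean. Its part in the values of dim genes was not tested. All 31 members read above the background mean of the array on all 6 arrays. The culture carried the markers of fat cells: all 8 measured markers of 9 listed, Adipoq and Plin1 among them, were above background on every array. Their summed linear level was 18500 to 18600 with PBS and 17900 to 18100 with kynurenic acid, and all 8 had log2 changes below 0. Fabp4 and Retn, the brightest, weigh most in that sum. Of the 8, only Plin1 had separated groups (12.5%, against 14.7% of all genes), and 0 stood at an unadjusted limma p below 0.05. The brown fat markers Ucp1 and Cidea were below background on all arrays. The 5 markers of dividing cells summed to 185 to 209 with PBS and 146 to 158 with kynurenic acid, 5 of 5 below 0. All 5 had separated groups (100%, against 14.7% of all genes). All 5 also stood at an unadjusted limma p below 0.05 (100%, against 9.69%), each with an adjusted p of 0.472. Bub1 among them was above background on 3 of 6 arrays. The 4 endothelial markers summed to 76.7 to 81.4 with PBS and 92.8 to 97.0 with kynurenic acid, 3 of 4 above 0. In the endothelial sum most of the difference lay in Cdh5, with means of 5.08 log2 with PBS and 5.59 with kynurenic acid, while Pecam1 and Kdr overlapped between the groups, Kdr was above background on 1 of 6 arrays and Tek had a log2 change of -0.093. The culture also carried macrophage markers, all 4 measured above background on every array, which summed to 2500 to 2720 with PBS and 2470 to 2950 with kynurenic acid. Of the 4 measured markers of preadipocytes and fibroblasts, Pdgfra, Dlk1 and Pi16 were above background on every array and Dpp4 below it on every array. The list summed to 1110 to 1150 with PBS and 970 to 1120 with kynurenic acid. Pdgfra, with means of 10.01 log2 with PBS and 9.9 with kynurenic acid, weighs most in that sum. The sums of the fat cell, dividing cell and endothelial lists separated the groups, and their part in the values of the 31 genes was not tested.

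The core enzymes of the pyruvate dehydrogenase complex read slightly below PBS in 4 of 5 genes, and none passed the test. Pdha1, on the X chromosome, encodes the alpha subunit of the decarboxylase, the site that the kinases phosphorylate. It measured 10.42, 10.48 and 10.24 log2 on the PBS arrays and 10.27, 10.26 and 10.17 on the kynurenic acid arrays. PBS array 3 read below kynurenic acid arrays 1 and 2, so the groups overlapped. Its log2 change was -0.15 (SE 0.0879, limma adjusted p = 0.602).

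Pdhb encodes the beta subunit of the same decarboxylase, on chromosome 14 at 8165991 to 8172992 (mm10, minus strand, 26 probes). It measured 11.02, 11.22 and 11.01 on the PBS arrays and 10.78, 11.01 and 10.78 on the kynurenic acid arrays. Kynurenic acid array 2 tied with PBS array 3, and the other two kynurenic acid arrays read below every PBS array. The log2 change was -0.23, with a 95% interval from -0.45 to -0.0047 (limma adjusted p = 0.513, with 0.0462 before adjustment). This is a percentage change of -14.5%, and the log2 value lay between -0.30 and -0.16 when single arrays were left out.

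Dlat, Pdhx and Dld encode the acetyltransferase core, the protein that anchors the last component to the core, and the lipoamide dehydrogenase that closes the reaction. Dlat measured 9.03, 9.11 and 9.02 on the PBS arrays and 9.01, 9.13 and 9.09 on the kynurenic acid arrays, and the groups interleaved. Its log2 change was 0.023 (SE 0.0768, limma adjusted p = 0.938) and turned to -0.013 after centring of the arrays and to -0.0033 without kynurenic acid array 2. Pdhx measured 8.28, 8.48 and 8.36 on the PBS arrays and 7.98, 8.41 and 8.22 on the kynurenic acid arrays. Kynurenic acid array 1 lay far below the others for this gene: the log2 change of -0.17 (SE 0.115, limma adjusted p = 0.643) was -0.058 without it. Dld, which also serves the 2-oxoglutarate dehydrogenase complex, measured 10.62, 10.80 and 10.57 on the PBS arrays and 10.52, 10.59 and 10.55 on the kynurenic acid arrays. Kynurenic acid array 2 read above PBS array 3, and the log2 change was -0.11 (SE 0.0855, limma adjusted p = 0.687). It was -0.042 without PBS array 2.

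The 5 genes of the complex did not read evenly from array to array within a treatment. PBS array 2 was the highest of all 6 for Pdha1, Pdhb, Pdhx and Dld, and the mean deviation of the 5 genes from their own means was 0.17 on that array, 0.026 on PBS array 1 and -0.0077 on PBS array 3. With kynurenic acid the mean deviations were -0.14, 0.032 and -0.086. Kynurenic acid array 2 thus stood above PBS arrays 1 and 3 in this mean, and the groups overlapped.

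**Figure D3:**
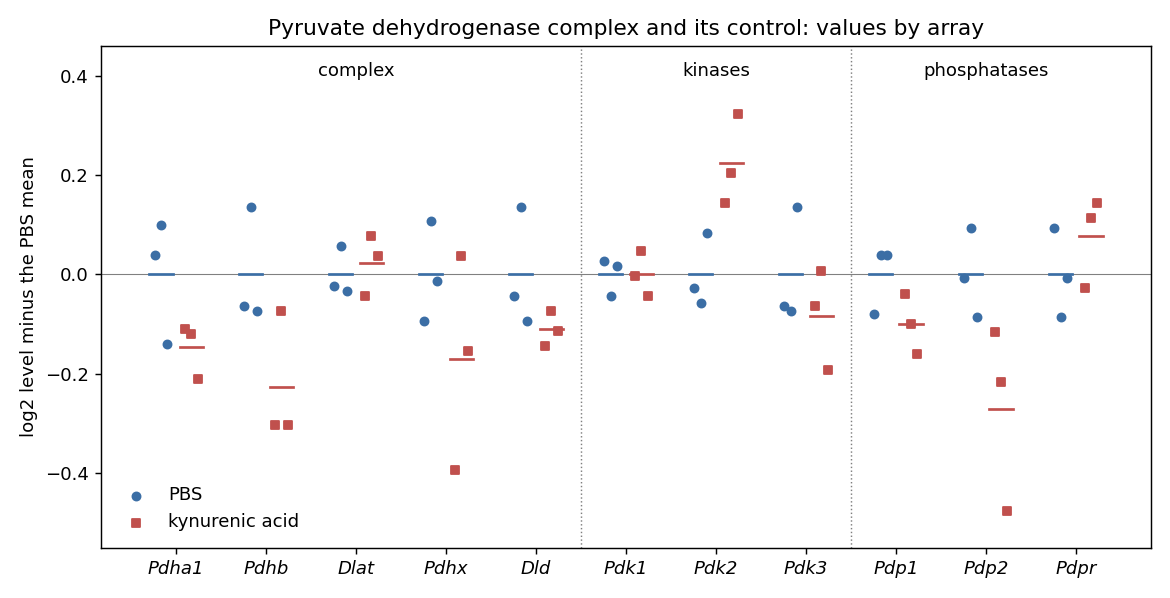
Level of the 5 genes of the complex, 3 kinases and 3 phosphatase genes on each array, as log2 level minus the PBS mean of the gene (vertical axis). Blue circles are PBS arrays, red squares are kynurenic acid arrays and bars are group means. The groups are apart for Pdk2 and Pdp2 and overlap for the other genes drawn.

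Of the kinases, Pdk2 read above PBS on every kynurenic acid array and the others did not. Pdk2, a kinase expressed in many tissues, lies on chromosome 11 at 95026258 to 95041371 (mm10, minus strand, 23 probes). It measured 7.63, 7.60 and 7.74 log2 on the PBS arrays and 7.80, 7.86 and 7.98 on the kynurenic acid arrays. The lowest kynurenic acid array stood above the highest PBS array, as in 7.14% of all genes. The log2 change was 0.22, a fold of 1.17, with a 95% interval from 0.034 to 0.41 (limma adjusted p = 0.493, with 0.0257 before adjustment). It ran from 0.17 to 0.27 when single arrays were left out, and was 0.187 after centring and 0.275 after cyclic loess. The sign did not change under any of the 14 alternatives run, of which the rest left the log2 change as it was. A kept sign was not particular to Pdk2, as 7 members of the list turned sign under any alternative. The unadjusted p of Pdk2 was not below 0.05 after centring, nor without PBS array 1 or 2 or kynurenic acid array 3. It was below 0.05 under the remaining alternatives. In the authors' deposited table the fold of Pdk2 was 1.168, its t-test p-value 0.033 and its q-value 0.522. That table gives p-values of 0.0974 for Pdhb, 0.076 for Pdp2 and 0.0777 for Me3.

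Pdk1, a kinase gene known as a target of the hypoxia response, measured 8.46, 8.39 and 8.45 on the PBS arrays and 8.43, 8.48 and 8.39 on the kynurenic acid arrays. Both means were 8.43 and the 95% interval of the log2 change ran from -0.17 to 0.17 (limma adjusted p = 1). A second Pdk1 cluster of 23 probes lies on the opposite strand within the gene, on chromosome 2 at 71901447 to 71901988. It read 4.06 and 3.95, above background on 5 of 6 arrays, with a log2 change of -0.11 (SE 0.14), and was not used. Pdk3, on the X chromosome, measured 6.04, 6.03 and 6.24 on the PBS arrays and 6.04, 6.11 and 5.91 on the kynurenic acid arrays. PBS array 3 was its highest and kynurenic acid array 3 its lowest value, and the log2 change was -0.083 (SE 0.0925, limma adjusted p = 0.786). It was -0.015 without PBS array 3. Pdk4, a kinase gene known to be induced by fasting and outside the list of 31, had means of 8.02 with PBS and 8.08 with kynurenic acid.

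The phosphatase genes gave values on both sides of 0. Pdp2, a catalytic subunit, lies on chromosome 8 at 104591468 to 104596866 (mm10, plus strand, 21 probes). It measured 6.31, 6.41 and 6.23 on the PBS arrays and 6.20, 6.10 and 5.84 on the kynurenic acid arrays. Every kynurenic acid array read below every PBS array, as in 7.58% of all genes, but the nearest pair of arrays differed little and kynurenic acid array 3 lay lowest. The log2 change was -0.27, a fold of 1.21 downward, with a 95% interval from -0.51 to -0.030 (limma adjusted p = 0.499, with 0.0313 before adjustment). Without kynurenic acid array 3 it was -0.17. Pdp1, the other catalytic subunit, measured 6.05, 6.17 and 6.17 on the PBS arrays and 6.09, 6.03 and 5.97 on the kynurenic acid arrays. Its groups overlapped through PBS array 1, and the log2 change was -0.10 (SE 0.0789, limma adjusted p = 0.692). Pdpr, the regulatory subunit of the phosphatase, measured 7.03, 6.85 and 6.93 on the PBS arrays and 6.91, 7.05 and 7.08 on the kynurenic acid arrays, with a log2 change of 0.077 (SE 0.086, limma adjusted p = 0.787) and overlapping groups.

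From citrate to 2-oxoglutarate, all 7 genes had overlapping groups and none stood at an unadjusted p below 0.05. Cs, citrate synthase, measured 11.22, 11.19 and 11.14 on the PBS arrays and 11.10, 11.16 and 11.14 on the kynurenic acid arrays. Its arrays lay within a narrow band, and the log2 change was -0.050 with a 95% interval from -0.22 to 0.12. Aco1, the cytosolic aconitase that doubles as an iron-responsive RNA-binding protein, had a log2 change of 0.0067. Of the NADP-dependent isocitrate dehydrogenases, the cytosolic Idh1 had -0.12 and the mitochondrial Idh2 -0.050. The 3 subunits of the NAD-dependent enzyme of the cycle had 0.0033 for the catalytic Idh3a, -0.027 for Idh3b and -0.047 for Idh3g. Adjusted limma p-values of these 7 genes ran from 0.647 to 0.992. The signs of Aco1, Idh2 and Idh3a turned under at least 1 alternative.

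From 2-oxoglutarate to oxaloacetate, 2 of 7 genes had separated groups, in opposite directions (28.6%, against 14.7% of all genes). Ogdh encodes the decarboxylase of the 2-oxoglutarate dehydrogenase complex and lies on chromosome 11 at 6291597 to 6359383 (mm10, plus strand, 25 probes). It measured 10.29, 10.25 and 10.29 on the PBS arrays and 10.38, 10.30 and 10.35 on the kynurenic acid arrays. The lowest kynurenic acid array exceeded the highest PBS array by the rounding step of the table, and the log2 change was 0.067 with a 95% interval from -0.098 to 0.23 (limma adjusted p = 0.782, with 0.384 before adjustment). Suclg2, the beta subunit of the GTP-forming succinyl-CoA ligase, lies on chromosome 6 at 95473012 to 95718837 (mm10, minus strand, 31 probes). It measured 8.37, 8.44 and 8.33 on the PBS arrays and 8.10, 8.29 and 8.21 on the kynurenic acid arrays, every kynurenic acid array below every PBS array. The log2 change was -0.18 with a 95% interval from -0.37 to 0.0061 (limma adjusted p = 0.520, with 0.0564 before adjustment). A second Suclg2 cluster, on the plus strand and with less specific probes, was below background on all arrays and gave 0.083. Suclg1, the alpha subunit that both ligases share, had -0.063, and Sucla2, the beta subunit of the ATP-forming ligase, had -0.027. Dlst, the succinyltransferase core of the 2-oxoglutarate dehydrogenase complex, had -0.047, the fumarase gene Fh1 0.030 and the mitochondrial malate dehydrogenase gene Mdh2 0.027. Adjusted limma p-values of the 7 genes ran from 0.520 to 0.926. The signs of Sucla2, Fh1 and Mdh2 turned under 1 or 2 alternatives.

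Genes of entry, exit and shuttling held the largest change of the list by size, in a gene whose signal lay close to background. Me3, a mitochondrial malic enzyme that turns malate into pyruvate, lies on chromosome 7 at 89632534 to 89854359 (mm10, plus strand, 17 probes). It measured 4.48, 4.63 and 4.73 on the PBS arrays and 4.52, 4.10 and 4.19 on the kynurenic acid arrays. Array means of the background probe sets were 3.58 to 3.76 with PBS and 3.76 to 3.91 with kynurenic acid. Kynurenic acid array 1 read within the PBS range and the other two read below it. The log2 change was -0.34, a fold of 1.27 downward, with a 95% interval from -0.62 to -0.071 (limma adjusted p = 0.475, with 0.0190 before adjustment). It was between -0.47 and -0.26 with single arrays left out. Me2, another mitochondrial malic enzyme, had a log2 change of -0.14 (SE 0.0984), and kynurenic acid array 3 was its lowest value at 6.68, against 6.87 to 7.03 on the other arrays. Without that array the change was -0.047.

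Got2, the mitochondrial aspartate aminotransferase, also forms kynurenic acid from kynurenine and is then called kynurenine aminotransferase IV. It lies on chromosome 8 at 95864134 to 95888547 (mm10, minus strand, 25 probes). It measured 9.12, 9.10 and 9.08 on the PBS arrays and 9.04, 9.03 and 9.03 on the kynurenic acid arrays, groups apart and each tight. The log2 change was -0.067, a fold of 1.05, with a 95% interval from -0.23 to 0.094 (limma adjusted p = 0.776, with 0.372 before adjustment). The authors' deposited table gives this gene a p-value of 0.00552 and a q-value of 0.522, from a t-test that uses the spread of the single gene. That spread was 0.0147, the smallest of the list, where limma draws each gene's spread towards that of all genes. Got1, the cytosolic partner in the malate-aspartate shuttle, had a log2 change of 0.070, and Mdh1, the cytosolic malate dehydrogenase of the same shuttle, -0.033. Pcx, pyruvate carboxylase, which makes oxaloacetate from pyruvate, had 0.11 (SE 0.0921, limma adjusted p = 0.718), with PBS array 2 its lowest value at 10.50 against 10.65 to 10.80 on the others. Leaving out that array gave 0.032.

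Across the list, 5 of 31 members (16.1%) had groups that did not overlap, Pdk2 and Ogdh above PBS and Pdp2, Suclg2 and Got2 below, against 14.7% of all genes. The widest range within a treatment exceeded the difference between the treatments in 29 members, and the exceptions were Pdk2 and Got2. No share over all genes is given for this count, and in Got2 that range was 0.04 log2, in values deposited with 2 decimals. The pooled SD of the members had a median of 0.0688 log2, against 0.116 over all genes. Extreme values were spread unevenly over the arrays, with ties given to the first array. PBS array 2 held the highest value of 13 members and the lowest of 7. Kynurenic acid array 1 held the lowest value of 12 and the highest of 1, and kynurenic acid array 3 the lowest of 7 and the highest of 5. Means of the members' deviations were 0.016, 0.044 and 0.020 on the PBS arrays and -0.047, 0.0077 and -0.041 on the kynurenic acid arrays. By the mean, the lowest PBS array, at 0.016, stood just above the highest kynurenic acid array, at 0.0077. Medians of the same deviations were 0.0117, 0.0367 and 0.01 on the PBS arrays and -0.045, 0.015 and -0.0183 on the kynurenic acid arrays. By the median, kynurenic acid array 2 stood above PBS arrays 1 and 3, and the groups overlapped. The count of members at an unadjusted p below 0.05 was 1 without PBS array 1, 1 without PBS array 2 and 0 without kynurenic acid array 3, and lay between 0 and 6 over the 6 arrays left out in turn. Of all 27365 genes, 1983, 1943 and 1910 stood there in those named settings, and 1910 to 3570 over the 6 arrays.

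**Figure D4:**
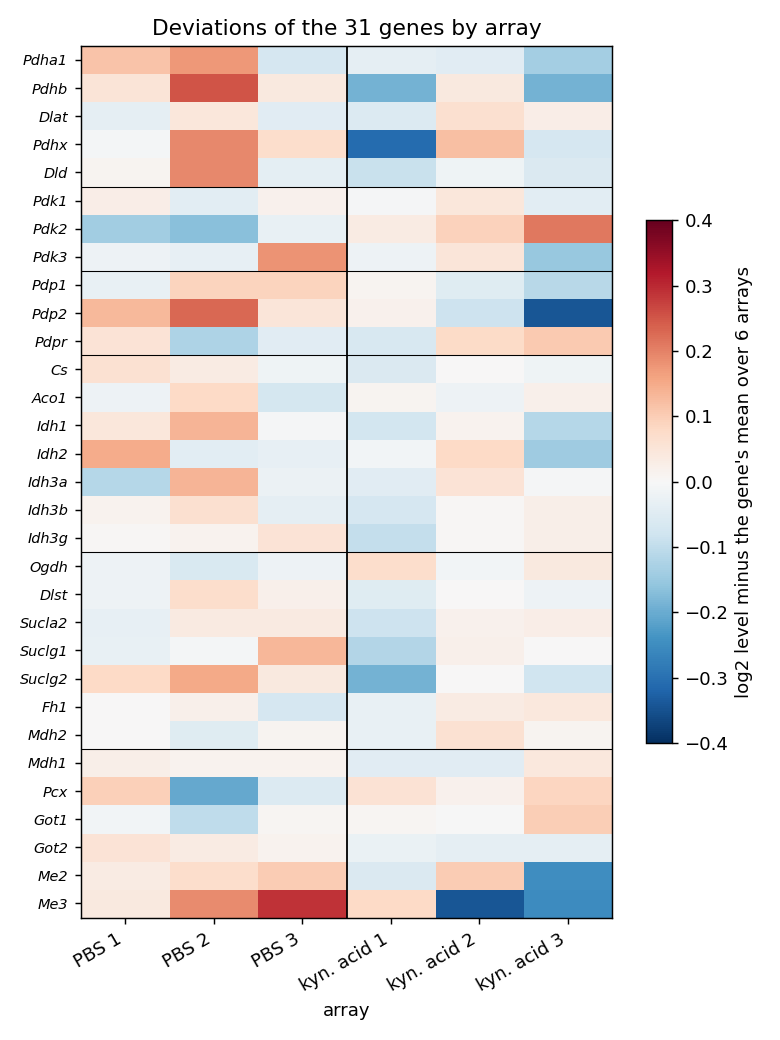
Deviation of each of the 31 genes (rows, ordered by role) from its own mean over the 6 arrays (columns), in log2, red above and blue below the mean. PBS array 2 is red and kynurenic acid array 1 blue in most genes of the complex (first 5 rows), and the last row, Me3, has the widest swings.

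Neighbouring genes of the pathway were kept as a separate list of 30, all measured. They cover succinate dehydrogenase, mitochondrial pyruvate and dicarboxylate carriers, lipoate synthesis, lactate dehydrogenase and glutamate entry. By limma over all genes 0 of 30 passed in either direction, 0 stood above and 2 below PBS at an unadjusted p below 0.05 (6.67% in all, against 9.69% of all genes), and the median log2 change was -0.037. In 5 of them every kynurenic acid array read below every PBS array, against 7.58% of all genes, and in 0 the reverse held. The largest changes among those 30 that were brighter than background were those of Lipt2, Ldha and Mpc2. Lipt2, which transfers the lipoyl precursor in the making of the cofactor that Dlat and Dlst carry, had means of 5.95 with PBS and 5.70 with kynurenic acid (log2 change -0.25, SE 0.0746, limma adjusted p = 0.472). Ldha, the lactate dehydrogenase subunit that favours lactate formation, had 6.80 and 6.62 (log2 change -0.18, SE 0.0915, limma adjusted p = 0.553). Mpc2, a subunit of the mitochondrial pyruvate carrier, had 8.97 and 8.79 (log2 change -0.18, SE 0.0986, limma adjusted p = 0.578). Beside Lipt2, the other gene below PBS at an unadjusted p below 0.05 was Slc25a12, an aspartate-glutamate carrier of the malate-aspartate shuttle, named after its values were seen, with -0.16.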

How the data were processed

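Transcript levels came from 6 arrays, 3 per group by their titles. Per the file headers, the authors ran RMA (background correction, quantile normalization, median polish within a transcript cluster), which gives log2 values, deposited with 2 decimals. The submitters' processing notes name Affymetrix Expression Console 1.41. Because quantile normalization equalises the arrays' distributions, a common shift of most genes is invisible. The annotation was NetAffx build 34 on mm10, per the file headers. The authors' deposited table adds a signed fold score, Student's t-test p-values and q-values of unstated method. Array values agreed between the deposited tables over 41345 clusters, and 2 columns of group means were not used.

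For each of 27365 symbols, the brightest cluster of crosshyb_type 1 was kept, or of any type for the 1751 symbols with none. Groups were compared with limma 3.58.1 (lmFit, eBayes, R 4.3.3), two-sided, without covariates or a filter on dim genes, and Benjamini-Hochberg adjustment ran over all symbols at 0.05. The script was tested on simulated data. The number of arrays limits the precision: the median arm of the 95% intervals was 0.18 log2 in the members and 0.214 over all genes. Every member is named. Values on each array are given for the pyruvate dehydrogenase genes, Cs and other members with an unadjusted p below 0.05 or separated groups. From the neighbouring genes, Pdk4 and the 3 with the largest changes above background are named, and Slc25a12 after its values were seen. A further gene was left out of that list and its counts and is not reported here. Alternatives were median centring, cyclic loess, an intensity trend, the methods' t-test, a filter at the 40th percentile, other rows per symbol, the replicate number as a block and each array left out. The members, lists and tests were chosen with earlier results of these data known. All 31 members matched RefSeq (GRCm38.p6) by Entrez identifier, under the same symbols.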

Additional observations from a re-analysis of the deposited data

How the results depend on the processing

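No member and no other gene passed at an adjusted p of 0.05 in the 13 alternatives fitted with limma or by the methods' t-test. The median log2 change of the members, -0.047 in the main setting, was -0.083 after centring the arrays on their medians and -0.0062 after cyclic loess, and ran from -0.06 to -0.02 with single arrays left out (-0.02 without kynurenic acid array 1). The cause was not tested. The number of members at an unadjusted p below 0.05, 4 in the main setting, was 2 after cyclic loess and 7 with the intensity trend, and 0 to 6 with single arrays left out. Of all 27365 genes, 2653 stood there in the main setting, 2417 after cyclic loess and 2879 with the intensity trend. With single arrays left out, 1910 to 3570 did. Pdk1, with a log2 change of 0.0, had no sign to keep and ran from -0.0367 after centring to 0.0497 after cyclic loess. Of 420 values of the other 30 members under alternatives, 403 kept their sign, 1 was 0.0 (Idh3b without kynurenic acid array 1) and 16 turned, in 7 members. The intensity trend, the t-test, the filter, the other rows per symbol and the replicate block left every member's log2 change as it was. Their values are among the 403 and could not turn. Leaving out 1 array moved the log2 change by over 1.5 times in 22 of the 30. After centring, Aco1 turned to -0.03, Dlat to -0.0133, Fh1 to -0.00667, Idh3a to -0.0333 and Mdh2 to -0.01, and after cyclic loess Sucla2 turned to 0.0199. With single arrays left out, Aco1 ran from -0.0267 to 0.0483, Dlat from -0.00333 to 0.0567, Idh2 from -0.102 to 0.0117, Idh3a from -0.0533 to 0.0717 and Sucla2 from -0.05 to 0.00833. Same-numbered arrays shared little beyond the number: their deviations from the group means correlated at 0.04, 0.07 and 0.09 over genes, although each array correlated best with its own number. With the replicate number as a block, 0 genes and 0 members passed. The same 4 members stood at an unadjusted limma p below 0.05, as did 2893 of all 27365 genes. The depth of an array is set by its signal over background, and among the members Me3 lay closest to it.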
